A study of Mus musculus with 2 samples.

Results

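The genes described here are the Wnt ligands, the Frizzled receptors and co-receptors, the R-spondins, the secreted inhibitors and the core effectors of the pathway, as measured in C2C12 myotubes. They were chosen by name: every non-control probe whose gene name on the array was a Wnt, Fzd, Sfrp, Dkk, Lrp5 or Lrp6, Ror, Rspo, Axin, Ctnnb1, Tcf7, Tcf7l1, Tcf7l2 or Lef1 entry. This gave 82 probes for 52 genes, of 37304 genes on the array. RefSeq listed the accessions of 69 of the 82 probes, under the same symbol in each case.

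C2C12 cells are mouse myoblasts, an established line, and fuse to form myotubes once the serum in the medium is lowered. Both cultures were such myotubes, and the total RNA of each was hybridised to 1 Agilent 1-colour array. One culture received 4 µg of exosomes for 24 h from a KPC cell line, grown from a tumour of mice carrying KrasLSL-G12D/+, Trp53LSL-R172H/+ and Pdx1-Cre, in which Pdx1 sequences drive the Cre recombinase in the pancreas (KPC-exo). The control culture received exosomes of a murine pancreatic ductal epithelial cell line (MPDC-exo) for 24 h, at a dose not given in the sources used here. No culture without exosomes is among the samples, and with 1 array per group no test is possible and no p-value is given.

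Wnt proteins are secreted, lipid-modified ligands that bind a Frizzled receptor together with Lrp5 or Lrp6. Without a ligand, a complex built on Axin and Apc marks β-catenin (Ctnnb1) for destruction. With a ligand that complex is held at the membrane, and β-catenin enters the nucleus and activates genes through Tcf7, Tcf7l1, Tcf7l2 and Lef1, among them the feedback gene Axin2. Other Wnt proteins act through Ror1, Ror2 and Frizzled receptors without β-catenin. In muscle the pathway takes part in myogenesis and regeneration, and Wnt7a acting through Fzd7 is known to promote myofibre growth.

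Signals are given as log2 values relative to the 75th percentile of their array, so 0 is that percentile. Each gene is represented by its brightest probe, and it counts as measured if both arrays read that probe well above background. Levels at different probes depend on the probe, so levels of different genes are not ranked. The only errors in the files are technical. The scanner software's own error estimate is carried into each log2 difference below and was 0.20 for bright probes. Separate probes of the same gene differed more: the pooled SD of their log2 differences was 0.36, both over 5736 genes and over the 9 members that had at least 2 measured probes. Spots of 1 probe printed repeatedly had a median SD of 0.03.

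Of the 52 genes, 35 were measured, 4 were above background on the KPC-exo array only, 0 on the MPDC-exo array only, and 13 on neither. Both arrays thus detected 67.3% of the members, where they detected 45.6% of all 37304 genes. The latter include entries named only by a clone or a probe, so these shares are of unlike sets. By role, 10 of 19 Wnt ligands, 9 of 10 Frizzled receptors, 4 of 4 co-receptors, 2 of 4 R-spondins, 3 of 8 secreted inhibitors and 7 of 7 effectors were measured. The median log2 difference (KPC-exo minus MPDC-exo) of the 35 was 0.03, beside 0.06 for all 16989 measured genes. Past 1.5-fold lay only Rspo2, which was 1.75-fold higher with KPC-exo, and Ror1, which was 1.84-fold lower. That is 1 of 35 in each direction, where 3.73% of all measured genes passed 1.5-fold upwards and 3.7% downwards. Centring on the spike-in controls instead raised the median of all genes by 1.00. With it 32 members were higher and 0 lower past 1.5-fold, beside 93.4% and 0.336% of all measured genes, so each difference here is relative to the other genes. Within 1.2-fold lay 25 of the 35, where 21% of all measured genes passed 1.2-fold upwards and 13% downwards.

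**Figure D1:**
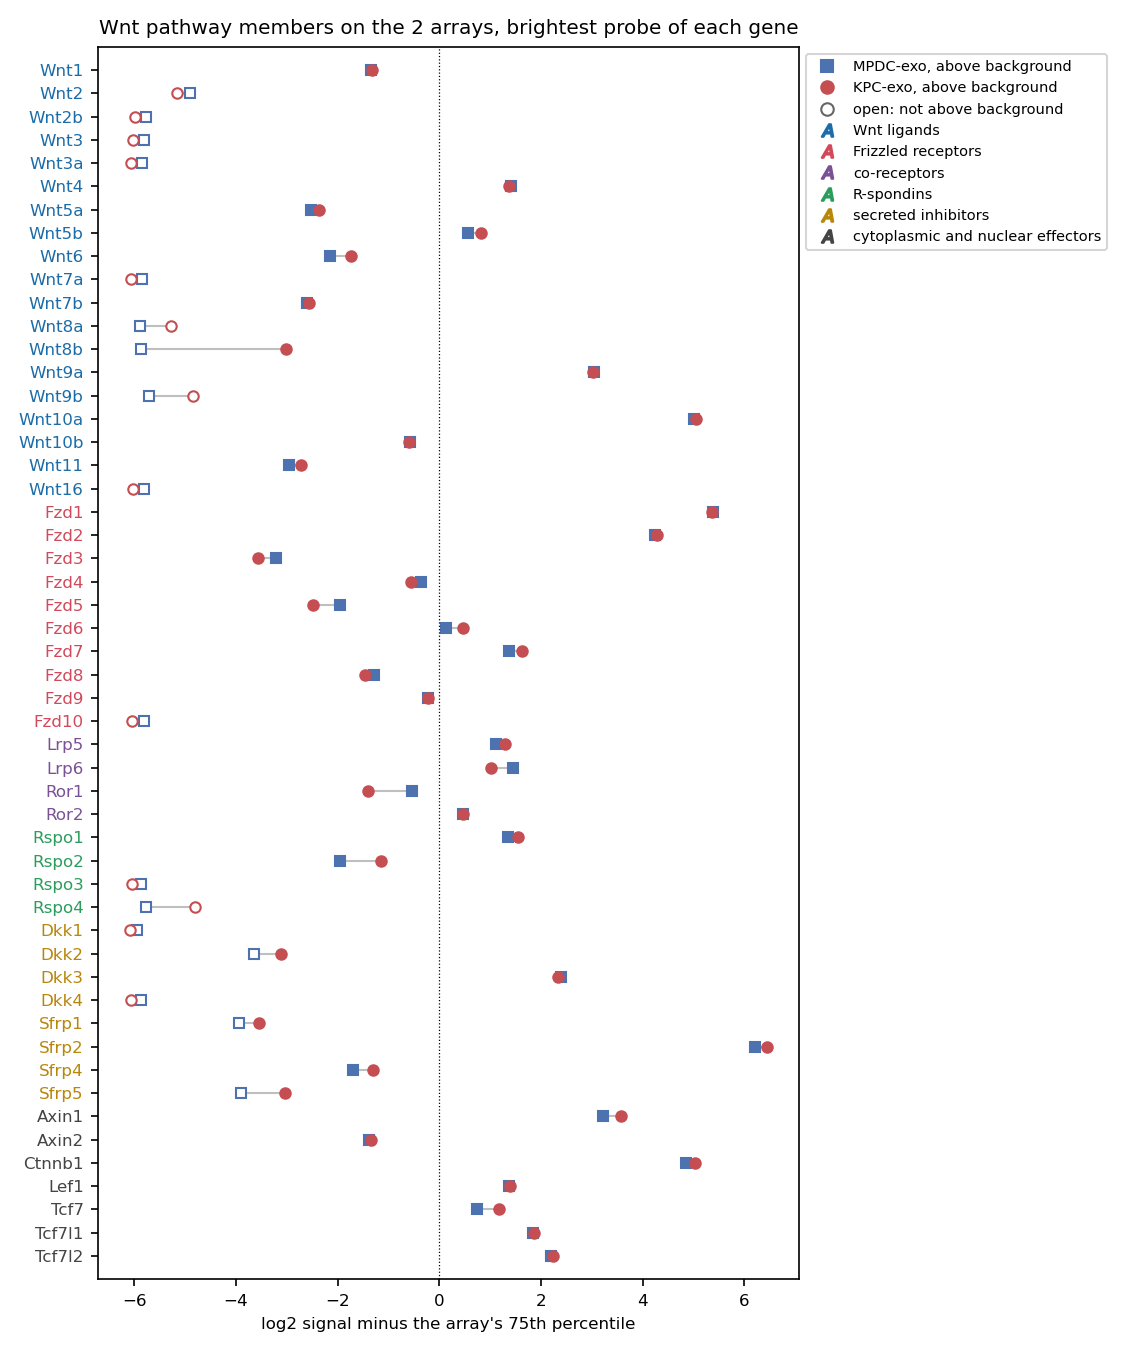
Log2 signal of each of the 52 genes relative to the 75th percentile of its array, at the brightest probe, on the MPDC-exo array (squares) and the KPC-exo array (circles), with open symbols where the signal was not well above background and gene names coloured by role. Most filled pairs overlap or nearly do, Ror1 and Rspo2 are the widest pairs filled on both arrays, and the 13 genes above background on neither array lie between -6.08 and -4.80.

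The probes on which the results turn are shown first. They are the single measured probes of Rspo2 and Ror1, and the probes of Ctnnb1 and Tcf7l2, 2 genes whose probes gave different answers. Each probe is 60 bases long and is written in lower case, 5′ to 3′, as in the deposited files, with no part in capitals. Only the first 30 bases are given for 5 of them. The number after each name is the base of its listed transcript at which the probe starts.
Rspo2, base 2894, first 30 bases: ccttaggtcagtttgtccttagattatgaa
Ror1, base 3468, first 30 bases: gaccatttatttcaaggactgaaaactgca
Ctnnb1, base 892: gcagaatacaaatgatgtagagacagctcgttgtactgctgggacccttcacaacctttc
Ctnnb1, base 2068, first 30 bases: aagggacatggagtgtaatgtactgttgtg
Ctnnb1, base 3271, first 30 bases: ttctaagaaccgagtaatggtgtagaacac
Tcf7l2, base 727: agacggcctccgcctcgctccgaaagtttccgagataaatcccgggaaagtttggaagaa
Tcf7l2, base 1077: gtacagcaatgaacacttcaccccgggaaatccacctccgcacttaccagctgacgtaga
Tcf7l2, base 1724: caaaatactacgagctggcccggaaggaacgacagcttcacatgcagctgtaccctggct
Tcf7l2, base 3494, first 30 bases: gatttgtatgtagttttaatgtcacctata

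On mm9, the build of the files, the Rspo2 probe lies at chr15:42852727-42852786 on the minus strand and the Ror1 probe at chr4:100115077-100115136 on the plus strand. The Ctnnb1 probes lie in that order at chr9:120860495-120860554, chr9:120865275-120865334 and chr9:120869274-120869333, all on the plus strand. The second of them is listed for another transcript than the other two. The Tcf7l2 probes lie on the plus strand at chr19:55817272-55817331, chr19:55982975-55983034, chr19:55994029-55994088 and chr19:56007586-56007645, and are listed for 3 transcripts. The files give each probe's transcript and position but not whether it lies in an exon, intron or UTR, and no annotation of this build was used here.

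Among the Wnt ligands, 10 of 19 were measured and their log2 differences ran from -0.04 to 0.42, with a median of 0.03 and none past 1.5-fold. Several are ligands of the β-catenin branch. Wnt1 had a log2 signal of -1.35 with MPDC-exo and -1.32 with KPC-exo, and Wnt10b, an inhibitor of adipocyte differentiation, had -0.58 and -0.59. Wnt10a, a close relative of Wnt10b with roles in teeth, hair and skin, had 5.00 and 5.04. For these 3 ligands both arrays gave the same level within the error of 0.20 to 0.22. Wnt6 had -2.15 and -1.73, the largest ligand difference at 0.42 (error 0.24, 1 probe), which was 0.11 with normexp, the background correction that shrinks dim signals. Wnt9a, which acts in joint development, had 3.05 and 3.02, and Wnt7b, a ligand of lung and kidney development, had -2.60 and -2.57.

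Ligands known mainly for signalling without β-catenin were also present. Wnt4, needed for kidney tubule and ovary development, had 1.41 with MPDC-exo and 1.37 with KPC-exo. Wnt11, a ligand of cell movement in the embryo, had -2.96 and -2.71 (difference 0.25, error 0.32), and Wnt5a, the best known ligand of Ror2, had -2.52 and -2.36 at the 1 of its 3 probes that was above background. These ligand differences lay within the error. Wnt5b, the closest relative of Wnt5a, had 0.56 and 0.82 at its brighter probe, a difference of 0.25, but -1.07 and -1.46 at the other, a difference of -0.39. Its probes therefore pointed in opposite directions, and their mean was -0.07.

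No probe of Wnt2, Wnt2b, Wnt3, Wnt3a, Wnt7a, Wnt8a, Wnt9b or Wnt16 was well above background on either array. This includes Wnt7a, the ligand of myofibre growth, whose brighter probe had -5.85 and -6.06, and Wnt3a, the ligand most used to activate the β-catenin branch, with -5.85 and -6.06. On both arrays the scanner software had replaced the signal of these Wnt7a and Wnt3a probes by a surrogate value, so their differences are not measurements. Wnt8b was detected with KPC-exo only, at -3.01 beside -5.87 with MPDC-exo, which was also a surrogate value. Set against the lowest signal counted as above background on the MPDC-exo array, -3.61, its KPC-exo signal was at least 1.52-fold higher. This bound allows for no spot error and rests on 1 probe, whose log2 difference had an error of 1.46.

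Frizzled receptors are the membrane proteins that bind Wnt ligands, and 9 of the 10 were measured. Their differences ran from -0.53 to 0.33 with a median of -0.01, and none passed 1.5-fold. Fzd1 had 5.38 with MPDC-exo and 5.37 with KPC-exo, and Fzd2 had 4.24 and 4.29. Fzd9 had -0.23 and -0.22. These 3 receptors had the same level on both arrays within the error of 0.20 to 0.21. Fzd7, the receptor of Wnt7a on muscle stem cells, had 1.37 and 1.63, a difference of 0.26 with an error of 0.20. Fzd6, a receptor linked to planar polarity, had 0.13 and 0.46, a difference of 0.33 with an error of 0.21. Both lie below the SD of 0.36 between probes of a gene, and each rests on 1 probe.

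The other measured Frizzled receptors were lower on the KPC-exo array at the probe used. Fzd5 had -1.96 and -2.49, a difference of -0.53 (1.45-fold, error 0.26). It passed 1.5-fold in 3 alternatives of scaling, where its lowest value was -0.60, and its other probe stayed near background in both cultures. Fzd3, which guides axons, had -3.22 and -3.57, close to the background, with an error of 0.40. Fzd8 had -1.28 and -1.46, within the error of 0.22. Fzd4, which also binds the ligand norrin in retinal vessels, had -0.35 and -0.55 at its brighter probe and -1.04 and -0.61 at the other, differences of -0.20 and 0.44 with opposite signs. Fzd10, the 1 receptor above background on neither array, had surrogate values of -5.81 and -6.04.

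The co-receptors held the lowest difference of all 35 measured members. Ror1, a receptor tyrosine kinase-like protein that binds Wnt5a, had a log2 signal of -0.53 with MPDC-exo and -1.41 with KPC-exo, a difference of -0.88 with an error of 0.21, which became 0.12 with spike-in centring. Its other probe, at surrogate values of -5.85 and -6.06, was not well above background, so the value rests on 1 probe. Of the genes in the same class of signal, the 25% above the dimmest 25% of measured genes, 4.59% were lower past 1.5-fold. Its close relative Ror2, the receptor through which Wnt5a acts on the cytoskeleton, had 0.46 on both arrays, a difference of 0.01.

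Lrp5 and Lrp6 are the co-receptors of the β-catenin branch. Lrp6 had 1.44 with MPDC-exo and 1.01 with KPC-exo at its brighter probe, a difference of -0.43 (1.35-fold, error 0.20). At its dimmer probe it had -1.94 and -2.45, a difference of -0.51 with an error of 0.25. The probes of Lrp6 thus gave the same direction and nearly the same size. Lrp5 had 1.12 and 1.30 at its brighter probe and -2.57 and -2.32 at the other, differences of 0.19 and 0.25. Both probes of each co-receptor agree in sign, lower with KPC-exo for Lrp6 and higher for Lrp5, but neither gene passed 1.5-fold, and the differences of Lrp5 lay within their errors of 0.20 and 0.27.

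R-spondins are secreted proteins that strengthen Wnt signals by sparing Frizzled receptors from degradation. Rspo2, which is expressed in developing muscle and limb, had -1.95 with MPDC-exo and -1.14 with KPC-exo, a difference of 0.81 with an error of 0.23. This was the highest difference among the measured members, at 1 probe, while its other probe, at surrogate values of -5.78 and -6.02, was not well above background. With normexp the value was 0.50, under 1.5-fold. In the dimmest 25% of measured genes, where Rspo2 lies, 9.89% were higher past 1.5-fold. Rspo1 had 1.36 and 1.54, a difference of 0.19 within its error of 0.20. Rspo3 and Rspo4 were above background on neither array.

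**Figure D2:**
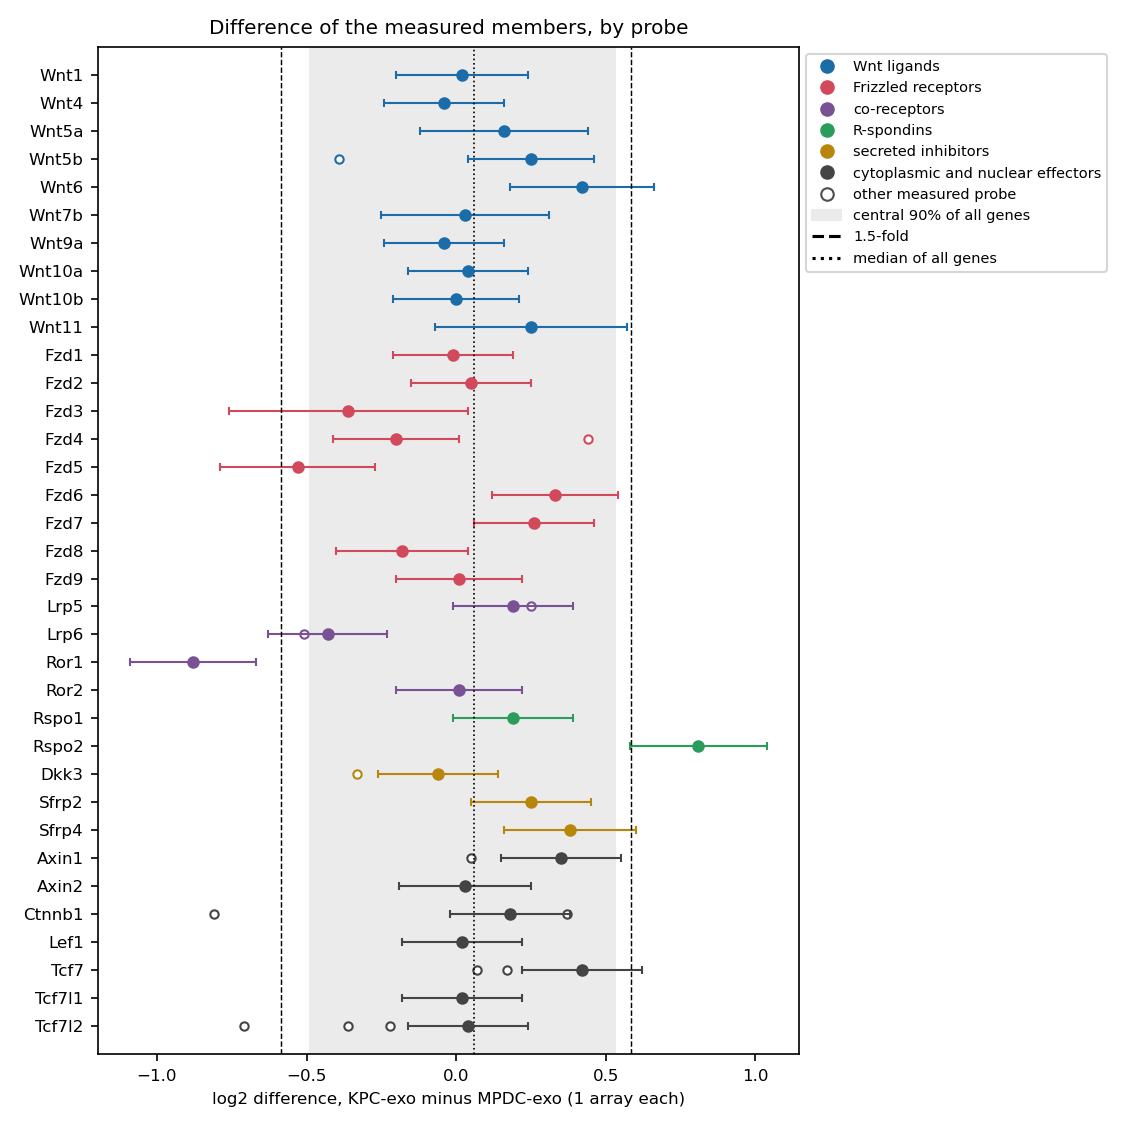
Log2 difference, KPC-exo minus MPDC-exo, of the 35 measured members: filled points are the brightest probe with the scanner software's error estimate as a bar, open points are other measured probes, the grey band holds the central 90% of all measured genes (-0.49 to 0.53) and dashed lines mark 1.5-fold. Only Ror1, at -0.88, and Rspo2, at 0.81, lie past 1.5-fold at their filled points, and single open points of Ctnnb1 and Tcf7l2 lie past it on the lower side.

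The secreted inhibitors were the role with the smallest measured share, 3 of 8. Sfrp proteins bind Wnt ligands through a Frizzled-like domain and Dkk proteins bind Lrp5 and Lrp6. Sfrp2, which is produced by many connective tissue and muscle cells, had 6.20 with MPDC-exo and 6.45 with KPC-exo, a difference of 0.25 with an error of 0.20. Sfrp4 had -1.69 and -1.31, a difference of 0.38 that was 0.17 with normexp. Dkk3, a divergent member that does not block Lrp6, had 2.39 and 2.34 at its brightest probe and a difference of -0.33 at another. None of these 3 passed 1.5-fold.

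Another 3 inhibitors were above background on the KPC-exo array only. Sfrp5 had -3.89 with MPDC-exo and -3.04 with KPC-exo, which makes it at least 1.49-fold higher, and Dkk2 had -3.64 and -3.12, at least 1.41-fold higher. Sfrp1 had -3.93 and -3.54, at least 1.05-fold higher. All lay next to the background level of -3.61, each at 1 probe. These bounds allow for no spot error, and the errors of the log2 differences were 0.45 for Sfrp5, 0.43 for Dkk2 and 0.48 for Sfrp1. With Wnt8b these are the 4 members, or 7.69% of 52, detected on that array alone. Over all genes 3.42% were detected on the KPC-exo array only and 1.65% on the MPDC-exo array only, and the share of probes well above background was 47.6% with KPC-exo and 45.9% with MPDC-exo, so more genes were detected with KPC-exo in general. The part of this in the members' detection was not tested. Dkk1 and Dkk4, the classical Lrp6 antagonist and its relative, were above background on neither array.

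All 7 cytoplasmic and nuclear effectors were measured, with differences from 0.02 to 0.42 and a median of 0.04. Axin2, the feedback inhibitor that β-catenin induces in most tissues, had -1.38 with MPDC-exo and -1.35 with KPC-exo, a difference of 0.03 with an error of 0.22. Lef1, itself a target as well as a transcription factor of the pathway, had 1.38 and 1.40, a difference of 0.02. Neither differed by more than its error. Tcf7l1, mostly a repressor, had 1.84 and 1.86. Tcf7 had 0.74 and 1.17 at its brightest probe, a difference of 0.42 (1.34-fold, error 0.20), with 0.17 and 0.07 at its other probes. Axin1, the scaffold of the destruction complex, had 3.22 and 3.57, a difference of 0.35, with 0.05 at its other probe.

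The probes of Ctnnb1 and Tcf7l2 shown above disagreed. For β-catenin, the brightest probe, at base 3271, had 4.85 with MPDC-exo and 5.03 with KPC-exo, a difference of 0.18 with an error of 0.20. The probe at base 892 had -0.26 and -1.07, a difference of -0.81, and the probe at base 2068, listed for another transcript, had 0.75 and 1.12, a difference of 0.37. The difference for this gene thus depended on the probe by 1.18 on the log2 scale. For Tcf7l2, the main TCF factor of many tissues, the brightest probe, at base 3494, had 2.19 and 2.23, a difference of 0.04. The probe at base 1724 had 0.01 and -0.70, a difference of -0.71, and those at bases 727 and 1077 had differences of -0.36 and -0.22. With the mean over all measured probes the values were -0.09 for Ctnnb1 and -0.31 for Tcf7l2.

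In both genes the probe nearest the 3′ end had a higher difference than the one nearest the 5′ end, and so it was in 6 of the 7 other members with more than 1 measured probe. The median gap over all 9 was 0.36. The exception was Lrp5, at -0.06, and Lrp6 had the smallest positive gap, 0.08. Wnt5b and Fzd4 had gaps of 0.64, Tcf7l2 0.40, Tcf7 0.36, Axin1 0.31 and Dkk3 0.27, and Ctnnb1 had the widest at 0.99. Over the 5563 genes on the array with such probe pairs the 3′ probe was higher in 54.5%, with a median gap of 0.05, or 0.08 where the probes lay over 1000 bases apart on the genome. Within 1000 bases, where Axin1, Tcf7 and Wnt5b fall, it was higher in 44.4% of 1084 genes, with a median gap of -0.05. The 3′ probe was also brighter, by a median of 3.40 in the members and 2.33 in all genes. The part of brightness, RNA quality or labelling in these gaps was not tested.

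**Figure D3:**
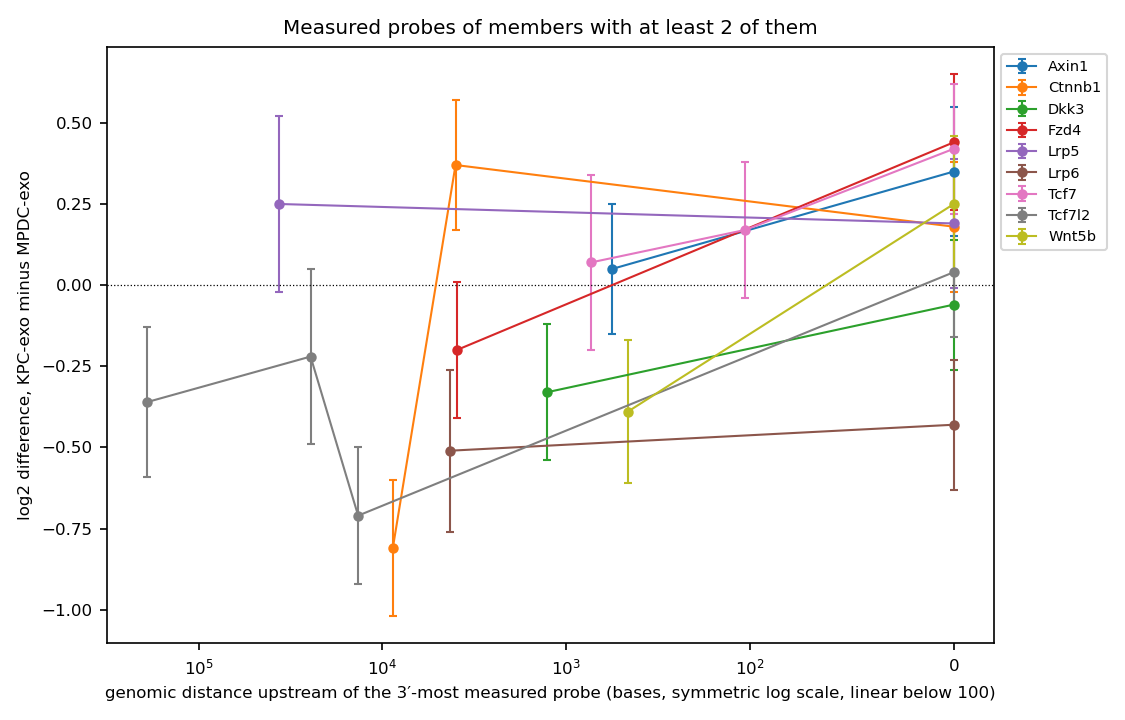
Log2 difference, KPC-exo minus MPDC-exo, of each measured probe of the 9 members with at least 2 measured probes, against its genomic distance in bases upstream of the 3′-most measured probe (symmetric log axis, linear below 100); bars are the scanner software's error estimate. At distance 0 the points lie between -0.43 for Lrp6 and 0.44 for Fzd4, while the lowest points upstream are those of Ctnnb1 at -0.81 and Tcf7l2 at -0.71.

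Against the error estimate, 12 of the 35 measured members differed by more than 1 error SD, where 42.6% of all measured genes did. More than 2 error SDs apart were 5 members, Ror1, Rspo2, Lrp6, Tcf7 and Fzd5, where 13.5% of all measured genes were. The estimate covers the reading of 1 spot on each array and not the variation between cultures. At a threshold of 1.2-fold, 6 members were higher with KPC-exo and 4 were lower, against 21% and 13% of all measured genes. At 2-fold these numbers were 0 and 0, against 0.73% and 1.19%.

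**Figure D4:**
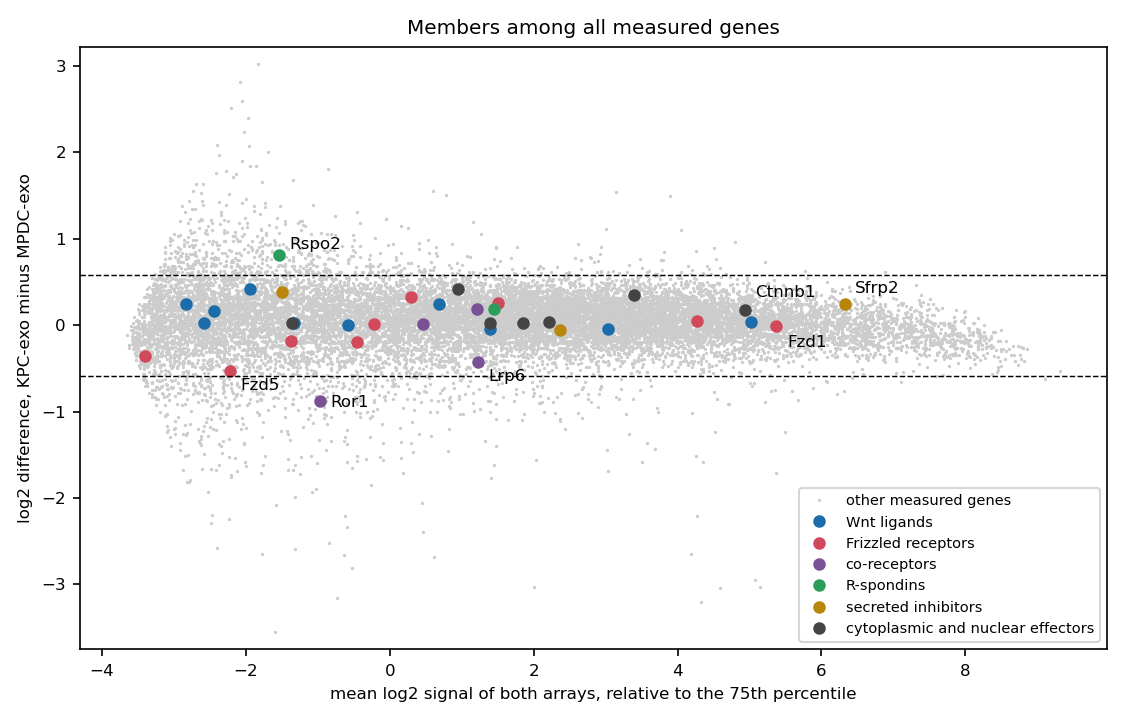
Log2 difference, KPC-exo minus MPDC-exo, against the mean log2 signal of both arrays relative to the 75th percentile, for all 16989 measured genes (grey) and the 35 measured members (coloured by role), with dashed lines at 1.5-fold. The spread of all genes is widest at low signal, where Rspo2 and Ror1 lie, and members of high signal such as Fzd1, Ctnnb1 and Sfrp2 lie between -0.01 and 0.25.

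Other genes of the pathway were taken from 6 lists of known components and targets, of which 106 genes that are not members were measured. Their median log2 difference was 0.01. Past 1.5-fold, 0 of them were higher with KPC-exo and 7 were lower (beside 3.73% and 3.7% of all measured genes). With normexp 3 were lower, beside 2.57% of all genes, and with the mean over probes 4, beside 3.76%. Centring on the median probe or on the percentile of probes detected on both arrays gave 8 lower, beside 4.37% and 4.39%. Quantile normalization also gave 8, beside 4.01%, and cyclic loess gave 9, beside 4.57%, with 0 higher in each. Centring on spike-in controls turned the split to 95 higher and 0 lower, beside 93.4% and 0.336% of all genes. The 7 were Bcl9, Dvl3, Ptk7, Apc, Camk2a, Crebbp and Znrf3.

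In the list of Dishevelled and destruction complex genes, 22 of 23 were measured, 0 were higher past 1.5-fold and 2 lower. Dvl3, which relays the signal from Frizzled, had 3.24 with MPDC-exo and 2.36 with KPC-exo, a difference of -0.89 at 1 measured probe, and its value ran from -0.96 to -0.84 over the alternatives other than spike-in centring. Apc, the scaffold that brings β-catenin to its destruction, had -2.93 and -3.56, near background with an error of 0.38. Gsk3b, a kinase of the complex, had 3.73 and 3.19 with differences from -0.66 to -0.03 at its 3 measured probes. The list's median was 0.02.

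Among co-receptors and receptor turnover genes, 9 of 11 were measured, 0 higher and 2 lower past 1.5-fold, with a median of -0.03. Ptk7, a planar polarity co-receptor, had 1.54 and 0.77, a difference of -0.78 at 1 measured probe. Znrf3, the ubiquitin ligase that removes Frizzled receptors and that R-spondins oppose, had 0.62 and 0.02 at its brightest probe, but its 3 measured probes ran from -0.60 to 0.65. Lgr4, an R-spondin receptor, had -1.06 and -0.53, a difference of 0.53. Lgr6 and Rnf43 were above background on neither array.

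A list of nuclear cofactors, which also holds cadherins and catenins of the cell junction such as Cdh2 and Ctnna1, had all 24 of its genes on the array measured, 0 higher and 2 lower past 1.5-fold, with a median of -0.05. Bcl9, which joins β-catenin to its coactivators, had 0.04 and -0.98, a difference of -1.01, but its 3 measured probes reached up to -0.05. The coactivator Crebbp had 2.75 and 2.15 at its brightest probe, a difference of -0.60, and 0.12 at its other. The β-catenin antagonist Cby1 had a difference of 0.39. In the planar polarity and calcium branch, 23 of 26 were measured, 0 higher and 1 lower, with a median of 0.01. Camk2a, a calcium-dependent kinase, had 1.30 and 0.67, a difference of -0.63, Celsr2 had 0.57 near background, and the 3 probes of Nfatc3 ran from -0.53 to 1.12. Of 14 genes of ligand secretion and extracellular modulation, 6 were measured and none passed 1.5-fold, with the largest differences at Serpinf1 with 0.20, Tinagl1 with 0.19 and Kremen1 with -0.08. The measured probes of Serpinf1 ran from -0.42 to 0.20 and those of Kremen1 from -0.12 to 0.73. Their median was 0.06.

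Of the 29 reported target genes of β-catenin on the array, 25 were measured, 1 was above background with KPC-exo only, and Fgf18, Rnf43 and Sp5 on neither array. The 25 had a median of 0.04, with 0 higher past 1.5-fold and 1 lower, which was Znrf3. The next largest differences were those of Birc5, a mitotic survival gene, with -0.45 and -0.46 at its probes, and Fosl1, an AP-1 subunit, with -0.44. Beyond 1 error SD lay 9 of the 25, of which 5 were higher and 4 lower, beside 42.6% of all measured genes. The classical targets Ccnd1 and Myc, named after their values were seen, had differences of 0.02 and -0.01.

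The cultures carried the markers of myotubes. All 15 myotube markers were measured, with a median difference of 0.09, and their signals summed to 559 times the 75th percentile on the MPDC-exo array and 602 times on the KPC-exo array. Of 14 ductal epithelial markers 10, among them Epcam, Cdh1 and Krt8, were above background on neither array, and the sum of the 4 measured, 108 and 120, was mostly Spp1, a gene also made outside epithelium and named here after its value was seen. Such sums depend on the probes of each list, so the lists are not ranked by them. Fibroblast markers summed to 616 and 596 over 7 measured of 10. Among the measured was Col1a2 at 8.22 and 8.16, named here after its value was seen, while Thy1 and Fap were above background on neither array. Markers of undifferentiated myoblasts were also present, summing to 33.3 and 29.5 over 5 measured of 6, with a median difference of -0.28. Beyond 1 error SD, in either direction, lay 4 of the 5, all lower with KPC-exo, beside 42.6% of all measured genes. Of the myotube markers 7 of 15 lay beyond it, 5 higher and 2 lower. Of the fibroblast markers 4 of 7 did, 3 higher and 1 lower. The summed signals of adipocyte, endothelial and macrophage markers were 0.409, 0.282 and 2.60 with MPDC-exo and 0.505, 0.269 and 2.61 with KPC-exo. In a culture, fewer cells of a type and less RNA per cell cannot be told apart. Both cultures came from the C2C12 line, so these sums are signals of marker genes and not shares of cell types. The part of undifferentiated myoblasts in the values of the Wnt genes was not tested.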

How the data were processed

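Per the file headers, the deposited scanner output is linear intensity for every spot; Feature Extraction 10.7.1.1 (Agilent) had subtracted background within each array. The authors' series value table holds deposited log2 values, of a making not given in the sources used here. Both columns had a median of 4.88 and correlated with the scanner values at 1.00, and it served only as an alternative. With it 558 genes were higher and 680 lower past 1.5-fold, against 557 and 681 with quantile normalization, so it adds little beside that alternative. Log2 processed signals had spots flagged as outliers removed (0 of them in members), spots of a probe averaged, and each array's 75th percentile, 380 units on MPDC-exo and 639 on KPC-exo, subtracted. Spots with only a flagged local background were kept, among them spots of the probes used for Fzd6, Sfrp2, Wnt6, Wnt10b and Wnt11. Gene names were updated from RefSeq (GRCm38.p6) for 32989 of 56605 probes. A member is a name match. Of the pathway lists, the genes past 1.5-fold and the 3 largest differences per list are named, besides those said to be named after their values were seen; marker lists give counts and up to 3 defining genes. Members and lists were chosen with earlier results of these data known. Bounds use the higher of the lowest above-background signal and the probe's own. Calculations were checked on simulated data with low added noise, which checks the code but not the calls at the error of these arrays. The number of arrays, 1 per group, limits precision. Alternatives concerned background, centring, normalization, filters, probe choice and thresholds. Python 3.11.15, numpy 2.4.6, pandas 2.3.3, matplotlib 3.10.9, R 4.3.3 and limma 3.58.1 were used.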

Additional observations from a re-analysis of the deposited data

How the results depend on the processing

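Centring on 7 spike-in controls raised the median of all genes by 1.00, from 0.06 to 1.06. It gave a member median of 1.03, 32 members at least 1.5-fold higher and 0 lower (93.4% and 0.336% of all genes), and 0.12 in place of -0.88 for Ror1, which is still below the shifted median. With normexp 0 members were higher past 1.5-fold (1.62% of all genes). Centring on the median probe, on the percentile of probes detected on both arrays, or by cyclic loess gave 2 lower members (4.37%, 4.39% and 4.57% of all genes), and loess gave a median of -0.04. The stricter filter left 11 measured members with 0 higher and 0 lower (0.836% and 1.32% of all genes). Without a filter on dim probes 6 members were higher, all but Rspo2 without a detected MPDC-exo signal, beside 8.22% of all genes, and the median of all genes was -0.15. A threshold of 1.2-fold gave 6 higher and 4 lower members and one of 2-fold 0 and 0. Of 426 member values over 13 alternatives, 390 stayed within the SD between probes of a gene, and of the 36 others 35 came from spike-in centring. The other was Fzd4, at 0.44 with the probe nearest the 3′ end, an alternative chosen after seeing the data, as was leaving out spots with a flagged local background. The causes were not tested. Many of the 426 values could hardly move. Keeping flagged spots and changing the filters left the probe of a member as it was. Probe choice altered only the 9 members with at least 2 measured probes. Leaving out spots with a flagged local background left 30 measured members, without Fzd6, Sfrp2, Wnt6, Wnt10b and Wnt11. Of the 30, 1 was higher and 1 lower past 1.5-fold, beside 3.8% and 4.01% of all genes. Over all measured genes 50.2% of those past 1.5-fold were higher, against 37.3% with loess, 38.7% with normexp, 39.8% and 40.1% with the other centrings, 38.8% with the stricter filter and 99.6% with spike-ins. No paired analysis was possible because each group has 1 array. Dim signal limits values such as those of Fzd3, Wnt11, Wnt7b, Wnt5a, Apc and Celsr2.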
